A study of Homo sapiens with 12 samples.

Results

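The miR-183/miR-96/miR-182 cluster is a group of 3 miRNA precursors, MIR183, MIR96 and MIR182, that lie side by side on human chromosome 7. Its members were taken by GENCODE gene name, and they are 3 of the 1881 precursor genes in the deposited tables. Small RNA was sequenced from A375, a BRAF-mutant melanoma line sensitive to the BRAF inhibitor dabrafenib, and from A375-BIR, its derivative selected for resistance by continuous culture in the inhibitor. Each line was given either 200 nM dabrafenib for 48 h or the vehicle, 0.1% DMSO, which makes 4 groups (A375 in DMSO, A375 in dabrafenib, A375-BIR in DMSO and A375-BIR in dabrafenib) of 3 libraries each. The labels call the libraries of a group biological replicates and do not say whether they came from separate cultures, so p-values measure the spread between these libraries. Both lines are established cell lines, and A375-BIR is 1 resistant derivative, so a difference between the lines is a difference between these 2 cultures of cells.

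Each library gave between 35070 and 122792 expected counts over all precursors. The totals ran from 77264 to 121802 in A375 in DMSO, from 36955 to 51532 in A375 in dabrafenib, from 106427 to 122792 in A375-BIR in DMSO and from 35070 to 59899 in A375-BIR in dabrafenib. Levels are given as CPM, counts scaled to a common library size, for which the total over the tested precursors was multiplied by the TMM factor, a scaling that sets most precursors equal between libraries. A precursor without counts could still have stood at up to 24.4 CPM in the deepest library and at up to 85.5 CPM in the shallowest (3 counts of the total). These limits leave out the TMM factor. With it, 3 counts were 99.7 CPM in replicate 3 of A375 in dabrafenib. Such limits, and the intervals given for shares, cover counting error only. Precursors with a stretch of 18 or more bases identical to 45S pre-rRNA took 2.65 to 5.59% of each library in DMSO and 14.4 to 26.3% of each library in dabrafenib, and the response of MIR182 in A375 is also given without them.

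miRNA clusters are usually transcribed as a common primary transcript, from which each hairpin is cut and processed into a mature strand of its own. The mature strand recognizes target transcripts mainly through its seed, the bases behind its 5′ end. The miR-183 family is best known from sensory cells of the ear and the retina, and in melanoma miR-182 is known to favour invasion and to repress the transcripts of FOXO3 and of MITF, the regulator of the pigment lineage.

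The mature 5p strands are printed to show how far the members share a seed, together with the 5p strand of the further human miRNA whose bases 2 to 7 match a member. Sequences were taken from RefSeq (GRCh38.p14), in which both mature strands of all 3 members were found, and capitals mark the seed, bases 2 to 8.
hsa-miR-183-5p: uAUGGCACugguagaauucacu
hsa-miR-96-5p: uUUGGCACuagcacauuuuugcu
hsa-miR-182-5p: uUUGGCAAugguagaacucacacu
hsa-miR-1271-5p: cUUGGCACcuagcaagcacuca

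The strands of miR-96 and miR-182 share bases 2 to 7 and 6 of the 7 seed bases. miR-183 shares 6 seed bases with miR-96 and 5 with miR-182, but behind the seed it is closer to miR-182. Counted from the 5′ end, miR-183 and miR-182 were identical at 18 of 22 positions, against 13 of 22 for miR-183 and miR-96 and 12 of 23 for miR-96 and miR-182. The miR-96 seed is shared in full by miR-1271, which comes from chromosome 5. MIR1271 had 0 counts in all 12 libraries, so among the seed relatives only the members of the cluster themselves were detected.

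In hg38 all 3 precursors lie on the minus strand: MIR183 (ENSG00000207691.1) at chr7:129774905-129775014, MIR96 (ENSG00000199158.1) at chr7:129774692-129774769 and MIR182 (ENSG00000207990.3) at chr7:129770383-129770492. They span 4632 bases, with 135 bases between MIR183 and MIR96 and 4199 bases between MIR96 and MIR182. GENCODE v44 places each of them in an intron of the lncRNA ENSG00000286380, on the same strand. The nearest protein-coding genes are NRF1, 13.3 kb away on the side of lower coordinates, and UBE2H, 55.7 kb away on the other side. The precursors share at most 11 bases in a row with any other row of the tables. Expected counts can be fractions where a read was divided among rows, and those of MIR183 and MIR96 were whole in all 12 libraries, while those of MIR182 were fractional in 3. With which row MIR182 shared reads there was not tested. The tables hold 1 value per precursor, which does not separate the 5p from the 3p strand.

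MIR182 is the precursor of the strand known from melanoma invasion. In A375 in DMSO, its expected counts in replicates 1, 2 and 3 were 139, 231 and 168, or 1664, 1754 and 1766 CPM. In A375-BIR in DMSO they were 1090.2, 1037 and 1420, or 9876, 8133 and 9820 CPM. All 3 resistant libraries stood far above all 3 parental libraries, and the groups did not overlap. With dabrafenib, A375 had 47, 48 and 40 counts of MIR182 (1226, 1354 and 1329 CPM), and A375-BIR had 315.2, 571 and 308.2 (8609, 8589 and 6234 CPM). Again every resistant library was above every parental library, although replicate 3 of A375-BIR in dabrafenib was the lowest of its line.

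**Figure D1:**
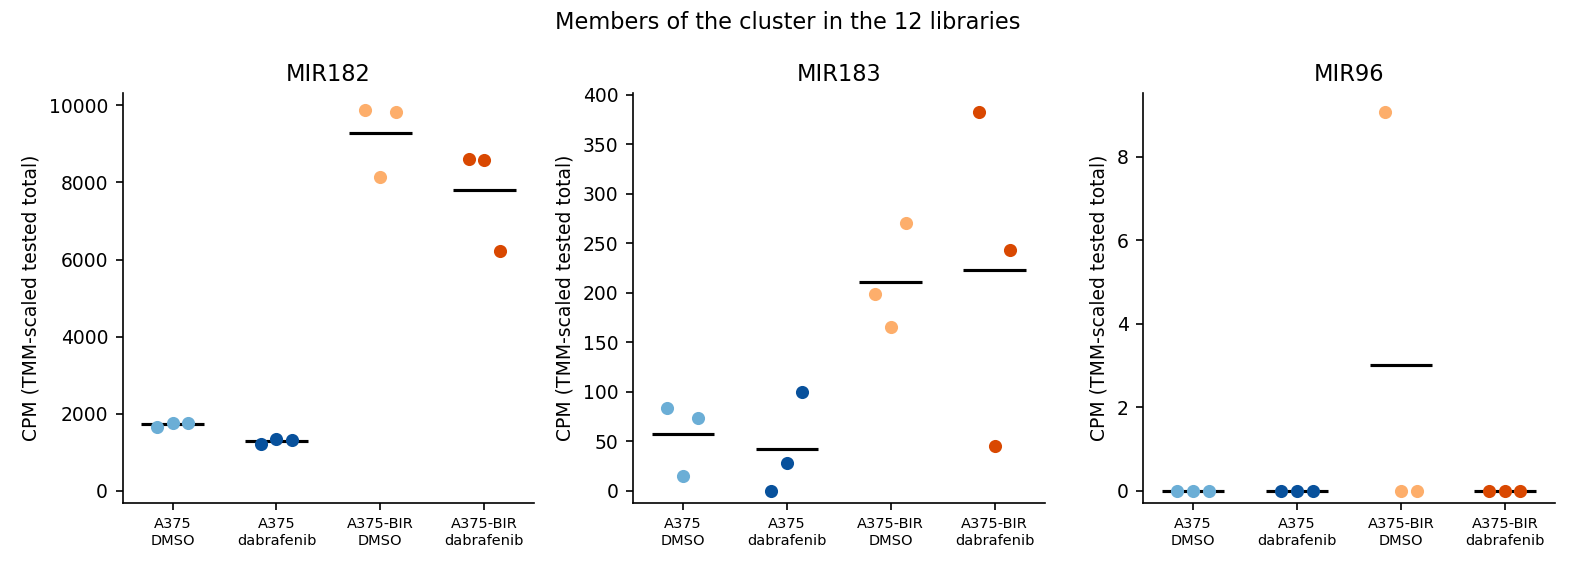
Levels of MIR182, MIR183 and MIR96 in CPM (vertical axes, a scale for each precursor) in the 3 libraries of each group, with points for libraries and black lines for group means. MIR182 stood between 6234 and 9876 CPM in A375-BIR and between 1226 and 1766 CPM in A375, MIR183 overlapped between the lines in dabrafenib, and MIR96 had a count in 1 library.

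The group means of MIR182 were 9276 ± 991 CPM in A375-BIR in DMSO, 7810 ± 1365 in A375-BIR in dabrafenib, 1728 ± 55.7 in A375 in DMSO and 1303 ± 68.3 in A375 in dabrafenib (SD, n = 3 each). In this order, the resistant groups overlapped with each other, while each of the other neighbours was separated. MIR182 was 5.36-fold higher in A375-BIR than in A375 in DMSO (log2 fold change 2.42 ± 0.17 SE, adjusted p = 3.16e-08, edgeR quasi-likelihood test with Benjamini-Hochberg adjustment). In dabrafenib it was 5.99-fold higher (log2 fold change 2.58 ± 0.18 SE, adjusted p = 6.52e-08 by the same edgeR test), and over both treatments 5.67-fold (2.50 ± 0.12 SE, edgeR adjusted p = 6.44e-10). All 6 resistant libraries were above all 6 parental libraries. When the labels of the lines were exchanged separately in each treatment, a two-sided exact permutation test put MIR182 at p = 0.005, the smallest value its 400 arrangements allow, and 57.1% of the 175 tested precursors had an exact permutation p under 0.05 for the lines, not adjusted. In RNA from whole cultures, fewer cells with a miRNA and less of it per cell cannot be told apart.

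Line differences were common among the 175 precursors that passed the filter on low counts. Of these, 46.3% were past the adjusted threshold of 0.05 between the lines in DMSO, 46.3% in dabrafenib and 60% over both treatments, and MIR182 was among them each time. The groups of 3 did not overlap for 61.1% of the tested precursors in DMSO and for 50.3% in dabrafenib, so a separation like that of MIR182 was frequent by itself. Its size was less so: from the highest log2 fold change down, MIR182 took place 8 of 175 in DMSO, 5 in dabrafenib and 5 over both treatments, where the median of all tested precursors was 0.11. The scaling moved that median, to 0.00 with DESeq2's size factors and to 0.34 with totals alone. MIR182 lay 2.39 above it, with a range from 2.35 to 2.40 over the alternatives. A change of scaling moves all precursors alike, so this narrow range is no test of the result. The distance was 2.31 without replicate 1 of A375-BIR in DMSO and 2.49 without replicate 3 of that group.

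The rank of a precursor within its own library does not depend on the scaling between libraries, but it does depend on the other precursors there. By expected count, MIR182 ranked 20 to 21 in the libraries of A375-BIR in DMSO and 21 to 25 in those of A375-BIR in dabrafenib. In A375 it ranked 39 to 44 in DMSO and 52 to 54 in dabrafenib. The ranks of the lines did not overlap, and how often this held for other precursors was not counted. With dabrafenib MIR182 ranked lower in A375, and in A375-BIR the ranks of the treatments met at 21. Precursors that share bases with pre-rRNA took 2.65 to 5.59% of each library in DMSO and 14.4 to 26.3% in dabrafenib. In each line, some of them stood below MIR182 in every DMSO library and above it in every dabrafenib library. Their rise lowers the rank of MIR182 whatever its own level. The extent of this was not tested.

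**Figure D2:**
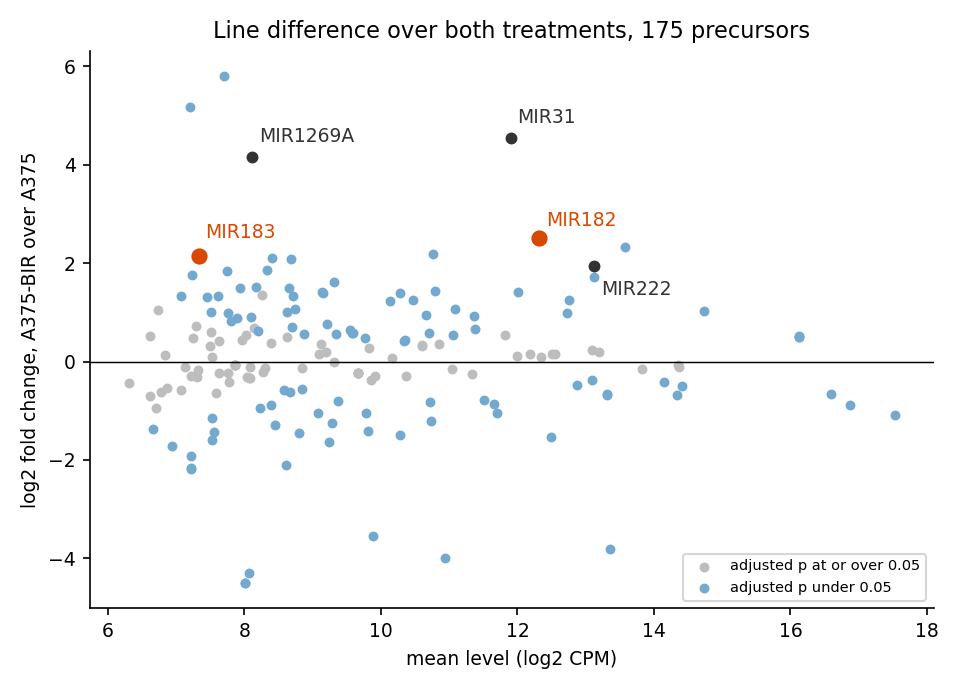
Log2 fold change of A375-BIR over A375 over both treatments (vertical axis) against the mean level in log2 CPM (horizontal axis) for the 175 tested precursors, with those past the adjusted threshold in blue. MIR182 (2.50) and MIR183 (2.15) are in orange, and black points are the 3 precursors whose profile over the libraries was most like that of MIR182.

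The response of MIR182 to dabrafenib was small beside the difference between the lines. In A375 the libraries in dabrafenib (1226 to 1354 CPM) stood below those in DMSO (1664 to 1766 CPM) without overlap. Groups that did not overlap, in either direction, were found there for 44% of the tested precursors. The fitted log2 fold change was -0.41 ± 0.18 SE, which did not pass the threshold (edgeR adjusted p = 0.132), whereas 25.1% of the tested precursors did. In A375-BIR the groups overlapped (36.6% of tested precursors did not overlap there), and the log2 fold change of MIR182 was -0.25 ± 0.16 SE (edgeR adjusted p = 0.278, with 20.6% of precursors past the threshold). It ran from -0.50 without a filter to -0.18 with only the libraries compared and passed under none of the alternatives. It was -0.11 without replicate 3 of A375-BIR in dabrafenib and -0.13 without replicate 1 of A375-BIR in DMSO.

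This outcome in A375 turned on how the libraries were scaled. The TMM factor was 0.814, 0.6929 and 0.8223 in replicates 1, 2 and 3 of A375 with the drug, and all other libraries had factors from 1.044 to 1.187. With library totals alone, the means of MIR182 in A375 were 1876 ± 69.4 CPM in DMSO and 1001 ± 76.1 CPM in dabrafenib (SD, n = 3), and the log2 fold change was -0.91 ± 0.19 SE (edgeR adjusted p = 0.00237). With DESeq2's size factors in the same edgeR fit it was -0.61 ± 0.16 SE (adjusted p = 0.0114), and over the 9 alternatives, of which 7 put it past the threshold, the adjusted p ran from 0.00237 to 0.186. Of all tested precursors 35.4% passed with totals (18 higher and 44 lower) and 26.3% with DESeq2's size factors (23 and 23), beside 32 higher and 12 lower with TMM. Without the precursors that share bases with 45S pre-rRNA, an alternative chosen after seeing the data, it was -0.55 ± 0.18 SE (edgeR adjusted p = 0.0372, with 23.4% of the precursors kept past the threshold). All precursors shifted with the scaling, and their median was 0.14 with TMM, -0.06 with DESeq2's size factors and -0.36 with totals. Measured from that median, MIR182 was at -0.55 in A375, and between -0.56 and -0.53 under the 9 alternatives. A change of scaling moves MIR182 and the median alike, so this distance could hardly change. In A375-BIR the same distance was -0.21, with a range from -0.22 to -0.20 under these alternatives, but it was -0.09 without replicate 3 of A375-BIR in dabrafenib and -0.32 without replicate 2 of A375-BIR in DMSO.

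**Figure D3:**
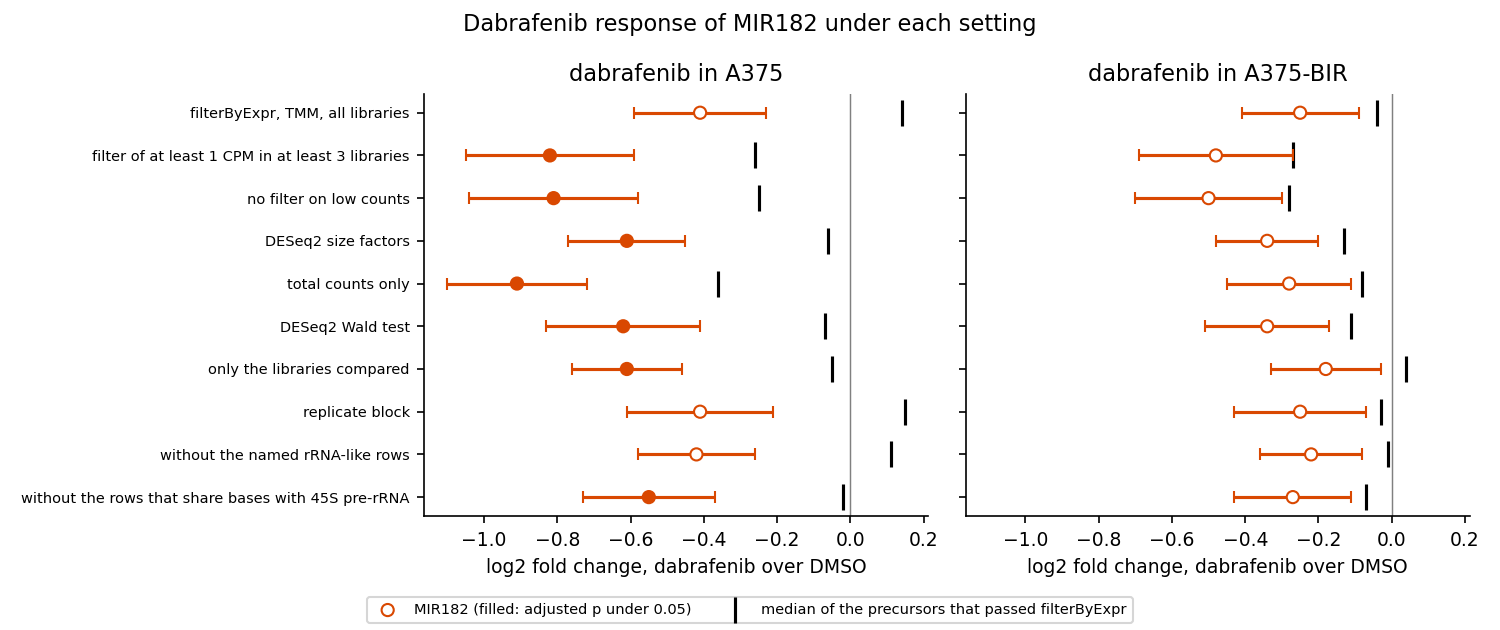
Log2 fold change of MIR182, dabrafenib over DMSO (horizontal axis, bars are standard errors), in A375 and in A375-BIR under each setting (vertical axis), with filled points past the adjusted threshold and black ticks for the median of the precursors that passed filterByExpr. In A375 the estimate runs from -0.91 to -0.41. The distance from the median stays near -0.55, since a change of scaling moves both alike.

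Over both lines, an exact permutation test that exchanged treatment labels within each line put the mean log2 difference of MIR182 at -0.33 with p = 0.015 (two-sided, 6 exact tests over members and factors in all, not adjusted). With totals alone the difference was -0.60 with exact p = 0.015, and with DESeq2's size factors -0.47 with exact p = 0.005. Such values were frequent: 35.4% of the tested precursors had an exact permutation p under 0.05 for the treatment in either direction, 45.7% with totals and 41.7% with DESeq2's size factors. The response did not differ detectably between the lines: the difference in response was 0.16 ± 0.24 SE on the log2 scale (edgeR adjusted p = 0.795, with 3.43% of precursors past the threshold). With totals alone it was 0.63 (edgeR adjusted p = 0.188, over the alternatives from 0.188 to 1). With a library left out it ran from 0.07 (replicate 2 of A375-BIR in DMSO) to 0.30 (replicate 1 of A375-BIR in DMSO or replicate 3 of A375-BIR in dabrafenib), and it was 0.09 and 0.08 without replicates 1 and 2 of A375-BIR in dabrafenib.

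MIR183, the first hairpin of the cluster in the direction of its strand, had low counts. In A375 in DMSO it had 7, 2 and 7 expected counts in replicates 1, 2 and 3, or 83.8, 15.2 and 73.6 CPM. In A375-BIR in DMSO it had 22, 21 and 39, or 199, 165 and 270 CPM. The lowest resistant library stood above the highest parental library, so these groups did not overlap. With dabrafenib, A375 had 0, 1 and 3 counts of MIR183 (0, 28.2 and 99.7 CPM). By the library total, without the TMM factor, the count of 0 allows up to 63.1 CPM, and with the factor of that library (0.814) the limit is higher. A375-BIR in dabrafenib had 14, 3 and 12 (382, 45.1 and 243 CPM). Here the groups overlapped, because replicate 2 of A375-BIR fell below replicate 3 of A375, and both of these rest on 3 counts.

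The group means of MIR183 were 223 ± 169 CPM in A375-BIR in dabrafenib, 211 ± 53.5 in A375-BIR in DMSO, 57.5 ± 37 in A375 in DMSO and 42.6 ± 51.4 in A375 in dabrafenib (SD, n = 3 each). Within each line the 2 means differed by less than their SDs. MIR183 passed the filter on low counts through its level in A375-BIR, so its being tested is no evidence in itself. In DMSO MIR183 was 3.9-fold higher in A375-BIR (log2 fold change 1.96 ± 0.66 SE, edgeR quasi-likelihood adjusted p = 0.0252, over the alternatives from 0.000388 to 0.0502). That call was lost with DESeq2's Wald test (log2 fold change 1.75, DESeq2 adjusted p = 0.0502) and without replicate 2 of A375 in DMSO (1.42, edgeR adjusted p = 0.133) or replicate 3 of A375-BIR in DMSO (1.73, edgeR adjusted p = 0.0616).

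In dabrafenib the log2 fold change of MIR183 between the lines was 2.34 ± 1.00 SE and did not pass (edgeR adjusted p = 0.0711, over the alternatives from 0.0035 to 0.0839). It passed under 5 of the 9 alternatives, among them total counts (2.80, edgeR adjusted p = 0.0314, with 47.4% of precursors past the threshold). The replicate block was another (2.32, edgeR adjusted p = 0.0427), though equal replicate numbers of the lines correlated at only 0.146, 0.047 and -0.0401 in dabrafenib. MIR183 also passed without either of the libraries with 3 counts, at 2.93 (edgeR adjusted p = 0.014) without replicate 2 of A375-BIR in dabrafenib and at 3.77 (edgeR adjusted p = 0.0491) without replicate 3 of A375 in dabrafenib. Without replicate 1 of A375-BIR in dabrafenib it was 1.75 (edgeR adjusted p = 0.208) and without replicate 1 of A375 in dabrafenib 1.77 (edgeR adjusted p = 0.189). Over both treatments MIR183 was 4.45-fold higher in A375-BIR (2.15 ± 0.59 SE, edgeR adjusted p = 0.00616), and the exact permutation test of the lines gave p = 0.015. That exact p was 0.05 without replicate 1 of A375-BIR in dabrafenib (mean log2 difference 1.83) and without replicate 1 of A375 in dabrafenib (1.67), beside 2.12 with all libraries. Measured from the median of the tested precursors, MIR183 was at 2.04, with a range from 2.00 to 2.07 over the alternatives. A change of scaling moves all precursors alike, so this range is no test of the result. The distance was 1.72 without replicate 1 of A375 in dabrafenib and 2.85 without replicate 3 of that group. The log2 fold change itself ran from 1.86 to 2.87 with a library left out.

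The dabrafenib response of MIR183 could not be resolved at this depth. Its log2 fold change was -0.44 ± 1.15 SE in A375 (edgeR adjusted p = 0.794) and -0.06 ± 0.61 SE in A375-BIR (edgeR adjusted p = 0.975). The difference in response was 0.38 ± 1.30 SE (edgeR adjusted p = 0.952), and the exact permutation test of treatment labels gave p = 0.47. The standard errors exceed the whole response of MIR182, so a response of that size was not detectable for MIR183.

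**Figure D4:**
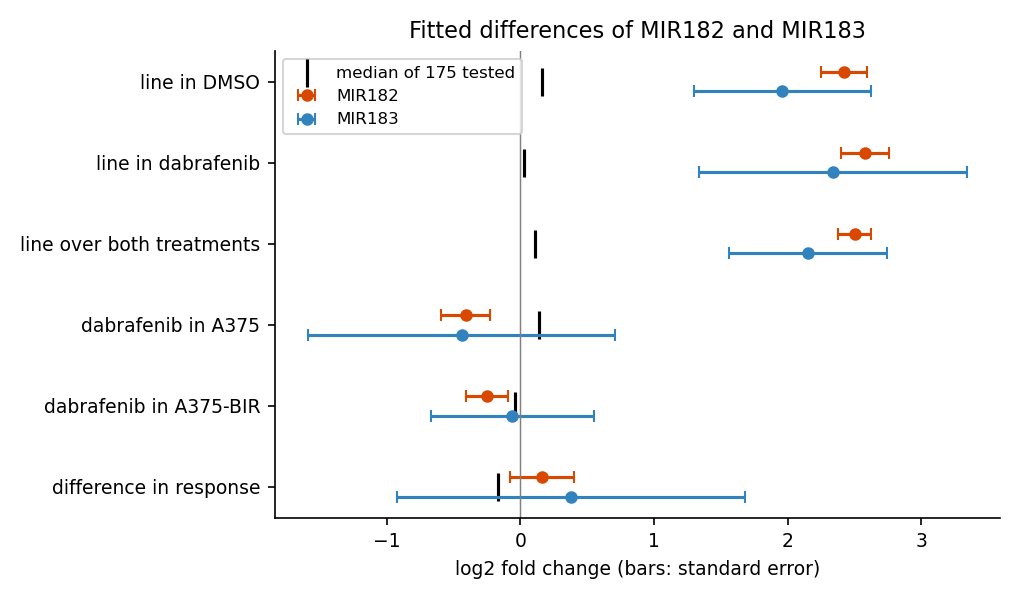
Log2 fold changes (horizontal axis) of MIR182 and MIR183 in the 6 comparisons (vertical axis), with standard errors as bars and black ticks for the median of the 175 tested precursors. Line differences are A375-BIR over A375 and responses are dabrafenib over DMSO; both members lie near 2 or above between the lines, and the bars of MIR183 are wider throughout.

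MIR96, which lies between the other members on the chromosome, was barely detected. It had 1 count in replicate 1 of A375-BIR in DMSO (9.06 CPM) and 0 counts in the other 11 libraries. No library or group therefore stood apart for this member. Summed over the 6 libraries of each line, 0 of 421958 counts in A375 allow up to 7.11 CPM, and 1 of 492418 in A375-BIR is 2.03 CPM with an exact 95% Poisson interval from 0.0514 to 11.3 CPM. Both lines were thus at or under the limit of 3 counts, and MIR96 was below the filter for the fit. The exact permutation test of line labels gave p = 1 for MIR96, a value fixed in advance because only 1 library had a count. A line difference of the size seen for MIR182 would not have been detectable at this depth.

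Within the cluster, the counts of the members are given per length of the precursor. Whether this makes the levels of different strands comparable was not tested. Over all 12 libraries, MIR182 had 4922 counts per 100 precursor bases, MIR183 119 and MIR96 1.28, and MIR182 held 97.6% of the 5546.6 counts of the cluster. The share of MIR183 was 2.89% in A375 (20 of 693 counts, exact Clopper-Pearson 95% interval 1.77 to 4.42%) and 2.29% in A375-BIR (111 of 4854 counts, 1.88 to 2.75%). These intervals overlapped, while the levels of MIR183 and MIR182 were several times higher in A375-BIR. The intervals pool the libraries of a line and cover counting error only. Whether the share differs between the lines was not tested across libraries. By group, the share of MIR183 was 2.89% in A375 in DMSO, 2.88% in A375 in dabrafenib, 2.26% in A375-BIR in DMSO and 2.37% in A375-BIR in dabrafenib. In replicates 1, 2 and 3 of A375 in DMSO it was 4.79, 0.858 and 4%. Except in A375-BIR in DMSO (1.98, 1.98 and 2.67%), the group shares thus depend on which libraries are included. Single libraries ranged from 0 (0 of 47 counts in replicate 1 of A375 in dabrafenib, where a limit of 3 counts allows up to 6.38%) to 6.98% (3 of 43 counts in replicate 3 of that group, 1.46 to 19.1%). In A375-BIR in dabrafenib the share was 0.523% in replicate 2 (3 of 574 counts, 0.108 to 1.52%) and 4.26% in replicate 1 (14 of 329 counts, 2.35 to 7.04%), the lowest and the highest of that group. MIR96 held 0.0206% of the counts of the cluster in A375-BIR (exact interval 0.000522 to 0.115%) and 0 of 693 in A375, where the same limit allows up to 0.433%. The members come from the same libraries and perhaps from the same transcript, so they are not independent measurements of the line difference.

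The profile of MIR182 over the 12 libraries was most like that of MIR222 (Pearson r of log2 CPM 0.985), MIR31 (0.983) and MIR1269A (0.963), from chromosomes X, 9 and 4. These r describe libraries that fall into 2 lines, so any precursor with a clear line difference scores high. MIR222, known to repress the cell cycle inhibitor p27 and the receptor KIT, had means of 4531 CPM in A375 in DMSO, 2856 in A375 in dabrafenib, 16260 in A375-BIR in DMSO and 11763 in A375-BIR in dabrafenib, the same order as MIR182. MIR31 had DMSO means of 351 CPM (A375) and 10231 CPM (A375-BIR) and dabrafenib means of 208 and 4032 CPM, a larger step than that of MIR182 (log2 fold change over both treatments 4.55 ± 0.15 SE, edgeR adjusted p = 6.13e-12). MIR1269A stood at 19.6 and 27.5 CPM in A375 and at 451 and 446 CPM in A375-BIR, in DMSO and dabrafenib respectively, and it passed the filter on low counts only through A375-BIR, so its place among the closest profiles is no evidence in itself.

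MIR183 correlated less with any precursor: the highest r over the 12 libraries were 0.753 with the unnamed row ENSG00000280968.1 of chromosome 22, 0.746 with MIR16-1 and 0.741 with MIR196B. Its r with MIR182, its neighbour in the cluster, was 0.735. With 0 to 7 counts of MIR183 in the A375 libraries and 3 to 39 in those of A375-BIR, its counting error limits any such r. MIR16-1 and MIR196B passed the filter on low counts only through A375-BIR, as MIR183 did. All 3 of its closest profiles were higher in A375-BIR over both treatments, by 0.82 ± 0.33, 0.99 ± 0.28 and 1.87 ± 0.24 (SE) on the log2 scale, less than the 2.15 of MIR183 itself, and the call of the unnamed row (edgeR adjusted p = 0.041) was lost under 2 of 8 alternatives and in 7 of 12 fits with a library left out. These 3 were chosen for their likeness to MIR183, itself higher in A375-BIR, so their direction is no evidence in itself.

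The other precursors of chromosome 7 differed between the lines in both directions. Of 75 further rows on the chromosome 12 were tested, and over both treatments 5 were higher in A375-BIR, 3 were lower and 4 did not pass, beside 60 higher and 45 lower of all 175 tested precursors (60% past the threshold). Their median log2 fold change was 0.10 beside 0.11 for all tested precursors. With total counts the calls over all tested precursors were 72 higher and 35 lower, and with DESeq2's size factors they were 50 higher and 54 lower. The nearest were MIR29A and MIR29B1, 1.1 Mb from the cluster, with log2 fold changes of 1.49 ± 0.24 SE (edgeR adjusted p = 8e-05) and 0.62 ± 0.26 SE (edgeR adjusted p = 0.0497), of which the latter call was lost under 4 of 8 alternatives and in 9 of 12 fits with a library left out. MIR3654, 3.26 Mb away, was at 1.31 ± 0.39 SE (edgeR adjusted p = 0.00895; it and MIR196B passed the filter on low counts only through A375-BIR), and MIR671, 21.5 Mb away, was lower in A375-BIR at -0.80 ± 0.16 SE (edgeR adjusted p = 0.000551). On the side of lower coordinates the nearest tested precursors were the 3 of the MIR25 cluster, 29.7 Mb away: MIR93 was higher in A375-BIR (1.00 ± 0.25 SE, edgeR adjusted p = 0.00347), and MIR25 (0.08 ± 0.13) and MIR106B (0.11 ± 0.14) did not pass. MIR106B passed with total counts, at 0.34 (edgeR adjusted p = 0.044). Over both treatments MIR182 and MIR183 lay above the 12 other tested precursors of their chromosome, of which MIR196B was next at 1.87 ± 0.24, within the error of MIR183. In DMSO alone MIR196B, at 2.49 ± 0.31, was above both members.

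**Figure D5:**
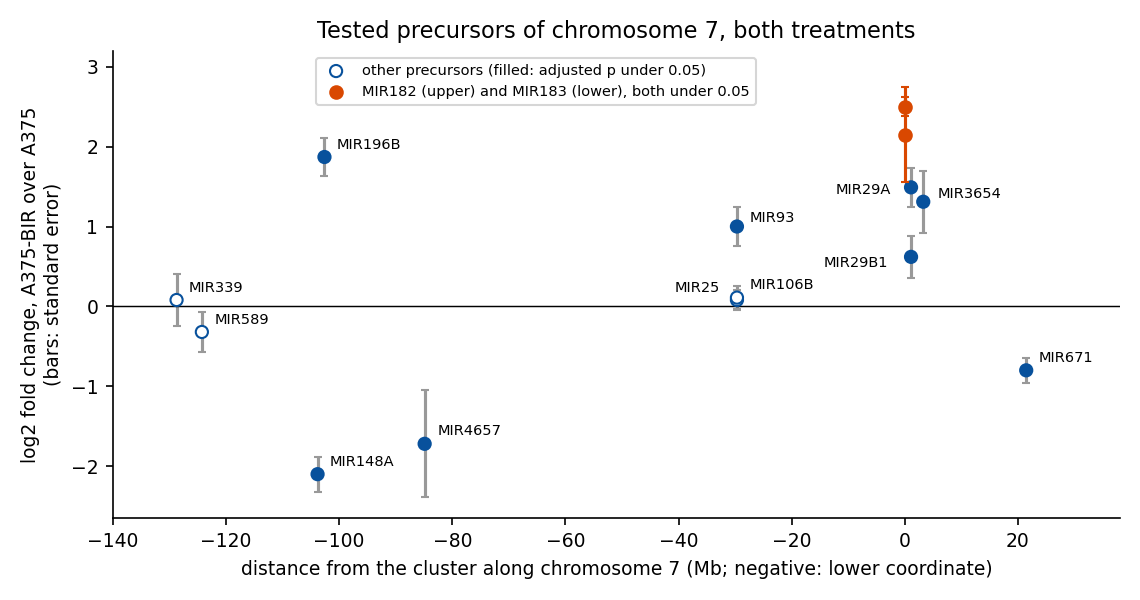
Log2 fold change of A375-BIR over A375 over both treatments (vertical axis, bars are standard errors) against the distance from the cluster along chromosome 7 in Mb (horizontal axis, negative towards lower coordinates), with filled points past the adjusted threshold. MIR182 and MIR183 (orange, at 0) lie above the 12 other tested precursors, of which MIR196B is highest at 1.87 and MIR29A, MIR29B1 and MIR3654 lie close by at 1.49, 0.62 and 1.31.

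Beside the cluster, 7 further precursors of the list of miRNAs known to act on FOXO transcripts had rows, and 5 were tested. Over both treatments 4 of them were higher in A375-BIR (MIR27A at 1.32, MIR27B at 0.66, MIR221 at 1.03 and MIR222 at 1.94 on the log2 scale), and MIR155 was lower (-3.55 ± 0.29 SE, edgeR adjusted p = 1.06e-07), beside 60 higher and 45 lower of all 175 tested (72 and 35 with total counts, 50 and 54 with DESeq2's size factors). The median of these 5 was 1.03, beside 0.11 over all tested precursors and 2.50 for MIR182, and with total counts it was 1.26 beside 0.34. MIR155 stood at 1771 ± 99.8 CPM in DMSO in A375 and at 84.6 ± 40.1 CPM in A375-BIR (SD, 3 libraries each), and it passed the filter on low counts only through A375.

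Of the miRNAs known to act on MITF, 2 of the 8 beside MIR182 were tested, and they differed in direction, beside 60 higher and 45 lower of all 175 tested over both treatments (72 and 35 with total counts, 50 and 54 with DESeq2's size factors). MIR148A was lower in A375-BIR (-2.10 ± 0.22 SE, edgeR adjusted p = 1.99e-06), at 126 ± 22.9 CPM in DMSO against 556 ± 34.8 CPM in A375 (SD, 3 libraries each). MIR148B was higher (0.77 ± 0.27 SE, edgeR adjusted p = 0.0255), a call lost under 2 of 8 alternatives and in 6 of 12 fits with a library left out. MIR137, also known to repress MITF, had 3 counts over the 12 libraries. The median of the tested pair was -0.67, beside 0.11 over all tested precursors and 2.50 for MIR182.

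Among miRNAs known from melanoma invasion or metastasis, 16 of the 19 beside MIR182 were tested, and over both treatments 8 were higher in A375-BIR, 6 were lower and 2 did not pass, beside 60 higher and 45 lower of all 175 tested (72 and 35 with total counts, 50 and 54 with DESeq2's size factors). The median of the list was 0.17 beside 0.11 for all tested precursors, and it was 0.40 with total counts and 0.32 without a filter. The list does not separate miRNAs that favour invasion from those that restrain it. Neither the counts nor the median therefore has a direction for invasion. Those higher were MIR34A (1.62), MIR196A1 (1.06), MIR196A2 (1.40), MIR221, MIR222 and the let-7a precursors MIRLET7A1, MIRLET7A2 and MIRLET7A3 (0.50, 0.51 and 0.50), and those lower were MIR30B (-1.26), MIR30D (-0.68), MIR199A1 (-2.19), MIR199A2 (-2.17), MIR199B (-1.91) and MIRLET7B (-1.08). Precursors of this list that give the same mature strand share their reads and are not separate evidence, and the 3 MIR199 precursors passed the filter on low counts only through A375, where they are high. MIR182 was higher than each of these 16 in its log2 fold change.

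Among miRNAs listed here under melanoma and the pigment lineage, those that could be tested were lower in A375-BIR. Of 17 such precursors 5 were tested, and over both treatments all 5 were lower in A375-BIR, beside 45 of all 175 tested (35 with total counts, 54 with DESeq2's size factors): MIR146A at -3.80 ± 0.16 SE, MIR204 at -4.00 ± 0.25, MIR509-1 and MIR509-2, whose counts are identical, at -4.49 ± 0.25 and MIR509-3 at -4.30 ± 0.27 (edgeR adjusted p at most 5.09e-09). The MIR509 precursors passed the filter on low counts only through A375, so the count of 5 is no evidence in itself. MIR211, also on this list, was below the filter. Its DMSO means were 20.6 ± 17.9 (A375) and 20.1 ± 9.77 CPM (A375-BIR). Its dabrafenib means were 181 ± 103 (A375) and 74.3 ± 12.3 CPM (A375-BIR, SD, 3 libraries each). Summed over the list, whose most abundant member is MIR146A, the libraries held 27950, 25208 and 28882 CPM in A375 in DMSO and 19687, 26746 and 23427 CPM in A375 in dabrafenib. The sums in A375-BIR were 1123, 1208 and 1618 CPM in DMSO and 2103, 1715 and 2710 CPM in dabrafenib. The sums of the lines did not overlap. Within A375 the members did not move together: the mean of MIR146A was 24296 CPM in DMSO and 14834 CPM in dabrafenib, and that of MIR204 was 1707 and 6100 CPM. In all, 5 of the 17 rows (MIR507 and the 4 MIR514 rows) were at 0 in every library, and the part of this shift in the levels of the cluster was not tested.

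None of the precursors listed here as markers of another cell type passed the filter on low counts, and tested precursors outside these lists were not examined as markers. The 7 epithelial precursors summed to between 15 and 263 CPM per library. In A375 their sums ran from 47.9 to 91.1 CPM in DMSO and from 166 to 226 CPM in dabrafenib, without overlap, where the level of MIR182 was lower in dabrafenib, also without overlap. There 44% of the tested precursors did not overlap, and by library totals 3 counts are 58.2 to 81.2 CPM in A375 in dabrafenib. Of the 7, MIR205 was the most abundant with 62 counts over the 12 libraries and a count in each, and MIR429 and MIR203A were at 0. The 4 precursors of blood cells summed to at most 162 CPM with MIR451A at 0, and the 5 of muscle to at most 63.1 CPM. The 6 of neurons summed to between 62.2 and 344 CPM, carried by the MIR9 precursors, with the 3 MIR124 precursors at 0. In A375-BIR the sums of the blood precursors (0 to 20.7 CPM in DMSO and 27.3 to 162 CPM in dabrafenib) and of the neuron precursors (62.2 to 212 CPM and 226 to 344 CPM) also did not overlap between the treatments. There 36.6% of the tested precursors did not overlap. By library totals 3 counts are 24.4 to 28.2 CPM in A375-BIR in DMSO and 50.1 to 85.5 CPM in dabrafenib. The blood sums in DMSO and the lowest in dabrafenib are under these limits, so this separation rests on few counts. MIR122 of liver was at 0 throughout. The part of these markers in the levels of the cluster was not tested.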

How the data were processed

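Per the study's methods, the authors trimmed the small RNA reads, removed contaminating sequences and mapped the rest to hg38, and they deposited an RSEM expected count per miRNA precursor and library, not normalized. The submitters' processing notes name RSEM 1.2.25, R 4.0.2 and edgeR. Samples were grouped by line and treatment from their labels. Of 1881 rows 1877 matched GENCODE v44, and 819 had at least 1 count in some library. Expected counts were rounded and tested across all precursors with edgeR 4.0.16 in R 4.3.3 (filterByExpr over the 4 groups, TMM, 1 mean per group, quasi-likelihood test, Benjamini-Hochberg adjustment over the 175 tested, threshold 0.05). The biological coefficient of variation was 21.6%. Standard errors came from each F statistic and its log2 fold change. Exact permutation tests used log2(CPM + 10), exchanging labels of line within treatment, or of treatment within line. Likeness used log2 CPM with a prior count of 2. The fit was tested on simulated data. Each pair of libraries within a group differed beyond Poisson sampling, with a chi-square of 2.5 to 32.1 per degree of freedom.

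The members and lists were chosen with earlier results of these data known. Named precursors are the members, seed relatives, the nearest tested precursors on chromosome 7, for each tested member the 3 with the highest correlation, and list members past the threshold between the lines. MIR137, MIR211, MIR205, MIR25, MIR106B, the MIR9 precursors and the marker rows at 0 are named for their place or role. Across precursors, the deviations of DMSO libraries from the mean of their group correlated between A375 and A375-BIR at equal replicate numbers (0.105, 0.219 and 0.303), while every other pair of groups had at least 1 value under 0.1. The pairing comes from these correlations and the replicate numbers of the labels, which name no shared day or batch. Alternatives were other filters, DESeq2's size factors, total counts, DESeq2 1.42.0's Wald test, only the libraries compared, the replicate block and fits without rRNA-like rows, and ranges over alternatives cover these. Each library was also left out in turn. Python 3.11.15, pandas 2.3.3, scipy 1.17.1 and matplotlib 3.10.9 were used for tables and figures.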

Additional observations from a re-analysis of the deposited data

How the results depend on the processing

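The higher level of MIR182 in A375-BIR kept its direction and its side of the threshold in DMSO, in dabrafenib and over both treatments under all alternatives run, with log2 fold changes from 2.25 to 3.06, and from 2.36 to 2.72 with a library left out. The call of MIR183 in DMSO was lost with DESeq2's Wald test (1.75) and ranged from 1.42 to 2.33 with a library left out. In dabrafenib MIR183 passed with a filter on CPM (1 or more in 3 or more libraries, 2.54), without a filter (2.55), with total counts (2.80), with DESeq2's Wald test (2.41) and with the replicate block (2.32), and ranged from 1.75 to 3.77 with a library left out. Left-out fits gave 1.67 to 2.54 for the mean log2 difference of MIR183 in the exact test of lines.

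The dabrafenib response of MIR182 in A375 passed the threshold under the filter of 1 CPM (-0.82), without a filter (-0.81), with DESeq2's size factors (-0.61), total counts (-0.91), DESeq2's Wald test (-0.62), only the libraries compared (-0.61) and, chosen after seeing the data, without the precursors that share bases with 45S pre-rRNA (-0.55). It did not pass with the replicate block (-0.41), without the named rRNA-like precursors (-0.42) or with any library left out (-0.46 to -0.37). Without the precursors that share bases with 45S pre-rRNA the other responses did not pass either (MIR182 in A375-BIR -0.27, MIR183 -0.58 in A375 and -0.07 in A375-BIR). The cause was not tested beyond the shift of the median given with the result. The response of MIR183, which passed nowhere, changed sign in A375-BIR with only the libraries compared (0.03), without the named rRNA-like precursors (0.00) and among left-out fits (-0.66 to 0.53), in A375 among left-out fits (-1.86 to 0.20), and so did its difference in response (-0.22 to 1.81). MIR25 between the lines, not called, was at -0.02 with DESeq2's size factors and with its Wald test, and from -0.01 to 0.17 with a library left out.

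Of all tested precursors, 36 were called for dabrafenib in A375-BIR, 19 with only the libraries compared and 20 to 46 with a library left out, the lowest without replicate 1 (20) and replicate 2 (22) of A375-BIR in DMSO. The 6 calls for the difference in response became 0 in edgeR without the named rRNA-like precursors, where 22 had an unadjusted p under 0.05, beside 34 with all precursors in edgeR and 6 calls by DESeq2's Wald test. They became 2 without the precursors that share bases with 45S pre-rRNA, and 3 to 6 with a library left out, with 3 without replicate 1 of A375 in DMSO, replicate 1 of A375 in dabrafenib or replicate 2 of A375 in dabrafenib. The replicate block left 78 calls for the lines in DMSO, where the numbers pair, of 81 without it, and changed no other call of the members than that of MIR183 in dabrafenib. Depth limits MIR183, with 20 counts over the A375 libraries, and MIR96, with 1 count in all.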
